A study of Mus musculus with 3 samples.

Results

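Fbn1, Fbln5 and Mgp are 3 of the 125 targets that carried molecules in a targeted single-cell RNA-seq panel for mouse bone marrow. They were taken by gene symbol and not by a cutoff on a measured value, although earlier results of these data were known at the choice. The molecules of all amplicons of a gene were added together. Fbn1 encodes fibrillin-1, the main protein of extracellular microfibrils, which form the scaffold on which elastin is deposited and which hold latent TGF-β complexes. Fbln5 encodes fibulin-5, a secreted, integrin-binding glycoprotein that brings tropoelastin to the microfibril. Mgp encodes matrix Gla protein, a small vitamin K-dependent inhibitor of calcification made by vascular smooth muscle cells and chondrocytes, which keeps arterial walls and cartilage free of mineral but is not itself a structural part of the elastic fibre. In a vessel wall, elastic fibres give arteries their recoil, and both endothelial and mural cells contribute to their assembly. Of 18 elastic fibre genes that were looked up, only Fbn1 and Fbln5 had molecules in these data, and the other 16 are not analysed here.

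Cells came from bone marrow of wild-type C57/B6 mice as late embryos (E18.5) and as adults, with no further treatment or allele named. The E18.5 EC library held endothelial cells (ECs) sorted by CD31 in the methods, while the series text names CD31 and endomucin, a protein that arterial ECs carry little of, so the gate is given in 2 ways. The E18.5 BM and Adult BM libraries held marrow cells after depletion of mature blood cells with lineage antibodies. Each library pooled several animals and was run on its own cartridge, and the age of the adult mice is not given in the labels. With 1 library per group, no difference could be tested against the spread between animals. Every interval printed is a 95% interval that covers counting error only.

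Both genes with an entry in the RefSeq promoter table are shown, since Fbn1 and Fbln5 had similar orders of level across many marrow clusters and parted in others. Each sequence is the 250 bases before the RefSeq start on the gene's strand (build GRCm38.p6), in lower case with the motifs searched in capitals. The GC box searched for was GGGCGG, which reads CCGCCC on the other strand. The CCAAT box was searched as these letters. The core bound by the Notch effector RBPJ was searched as TGGGAA, which reads TTCCCA on the other strand. The TATA box, TATAAA, and the core bound by GATA factors, AGATAA, were searched on both strands as well.
Fbn1, chr2:125506439-125506688: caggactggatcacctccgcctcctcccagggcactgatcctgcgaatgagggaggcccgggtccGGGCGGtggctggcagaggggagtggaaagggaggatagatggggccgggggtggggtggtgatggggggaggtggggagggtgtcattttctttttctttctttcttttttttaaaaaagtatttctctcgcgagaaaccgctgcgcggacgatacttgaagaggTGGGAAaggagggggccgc
Fbln5, chr12:101819120-101819369: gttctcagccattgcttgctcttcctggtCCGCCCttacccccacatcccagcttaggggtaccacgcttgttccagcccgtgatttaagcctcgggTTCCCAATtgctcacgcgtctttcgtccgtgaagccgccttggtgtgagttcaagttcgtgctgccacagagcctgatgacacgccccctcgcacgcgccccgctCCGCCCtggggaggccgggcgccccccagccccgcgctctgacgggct

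The Fbn1 window held 1 GC box at position -185 and 1 TGGGAA at -19, counted from the RefSeq start. The Fbln5 window held 2 GC boxes, at -221 and -48, and a CCAAT at -150 that overlapped a TGGGAA on the other strand at -153. Of 32851 promoter windows of the same length, 32.7% held GGGCGG, 33.9% CCAAT, 21.6% TGGGAA, 12.4% TATAAA and 9.99% AGATAA. Neither window held TATAAA or AGATAA, and a second Fbln5 window (chr12:101818485-101818734) held none of the 5 motifs. GC content was 59.2% for Fbn1 and 65.2% for Fbln5, beside a median of 52.4%. A match of letters is a description and not a site, and Mgp had no entry.

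All 3 genes lie on the minus strand (GRCm38, GENCODE M21). Fbn1 (ENSMUST00000028633.12) spans chr2:125300594-125506385 with 66 exons, Fbln5 (ENSMUST00000021603.8) spans chr12:101746565-101819055 with 11 exons, and Mgp (ENSMUST00000032342.2) spans chr6:136872435-136875823 with 4 exons. Fbn1 was counted by a PolyA_1 and a Reference_end amplicon, and the second gave only 15 of 405 molecules in the E18.5 EC library, with about 1 read each. Fbln5 was counted by 1 PolyA_1 and Mgp by 1 Reference_end amplicon. A targeted amplicon has its own efficiency, so levels are compared for 1 gene between cells and never between genes. A level is the number of error-corrected (DBEC) molecules of a gene per 10000 panel molecules of the same cells.

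After removal of cells with under 20 molecules or 5 targets, 4038 E18.5 EC, 12844 E18.5 BM and 7939 Adult BM cells remained, with median depths of 83, 97 and 242 molecules. Cells were clustered without Fbn1, Fbln5, Mgp and the cell cycle targets, so the members did not shape the classes. Classes are called "-like" from marker genes on the panel: Pecam1 and Kdr for ECs, Gja4, Sema3g and Hey1 for arterial ECs, Acta2, Tagln, Rgs5 and Notch3 for mural cells, Postn, Aspn and Ccn3 for fibroblasts, Cxcl12 and Lepr for reticular cells, Col2a1 and Acan for chondrocytes, and Ptprc for haematopoietic cells. In the sorted library 3043 cells were endothelial-like and 688 haematopoietic-like, the latter with Ptprc. Between 5.15% and 60.7% of a library's cells stayed unnamed, the highest share being that of the E18.5 BM library. Doublets were not called, and 38 to 113 cell barcodes were shared between pairs of libraries. Haematopoietic-like cells, which should lack the members, served as a guide to the level of free RNA, though in the sorted library their clusters differed in Mgp.

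Each member had its own place of highest level. Fbn1 was highest in fibroblast-like cells of both marrow libraries, Fbln5 in arterial-like ECs of every library, and Mgp in arterial-like ECs of the sorted library, in fibroblast-like cells of E18.5 marrow and in chondrocyte-like cells of adult marrow. These orders are over clusters and endothelial subclusters of at least 50 cells. In the sorted library the first place of Fbln5 rested on 24 of 285 arterial-like cells, those with at least 5 Mgp molecules, and the other 261, at 180, lay below Vwf-high cells (334) and Stab1-high subcluster 1 (204). The median Fbln5 level of single cells there was 83.0 in arterial-like and 217 in Vwf-high cells. In adult marrow, the Fbn1 level of fibroblast-like cells was 203, and the next cluster, reticular-like cluster 4, had 33.8. Reticular-like cluster 2 (30.3) came next without overlapping cluster 4, and then each cluster, through the mural-like cells (9.70) to arterial-like subcluster 3 (4.10), overlapped the one before it. For Fbln5, the 2 arterial-like subclusters (833 and 435) stood first, ahead of reticular-like clusters 2 (322) and 4 (302). For Mgp, chondrocyte-like cells (1626) stood first, while mural-like cells (1016), the unnamed cluster 13 (994) and reticular-like cluster 2 (994) had overlapping intervals. An unnamed cluster of only 24 cells in the E18.5 EC library, with Postn, Rgs5 and Spp1 at 1251, 1354 and 1873 and Pecam1 at 7.01, had levels of 60.3, 35.1 and 1195 and held 28.8% of that library's Mgp.

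**Figure D1:**
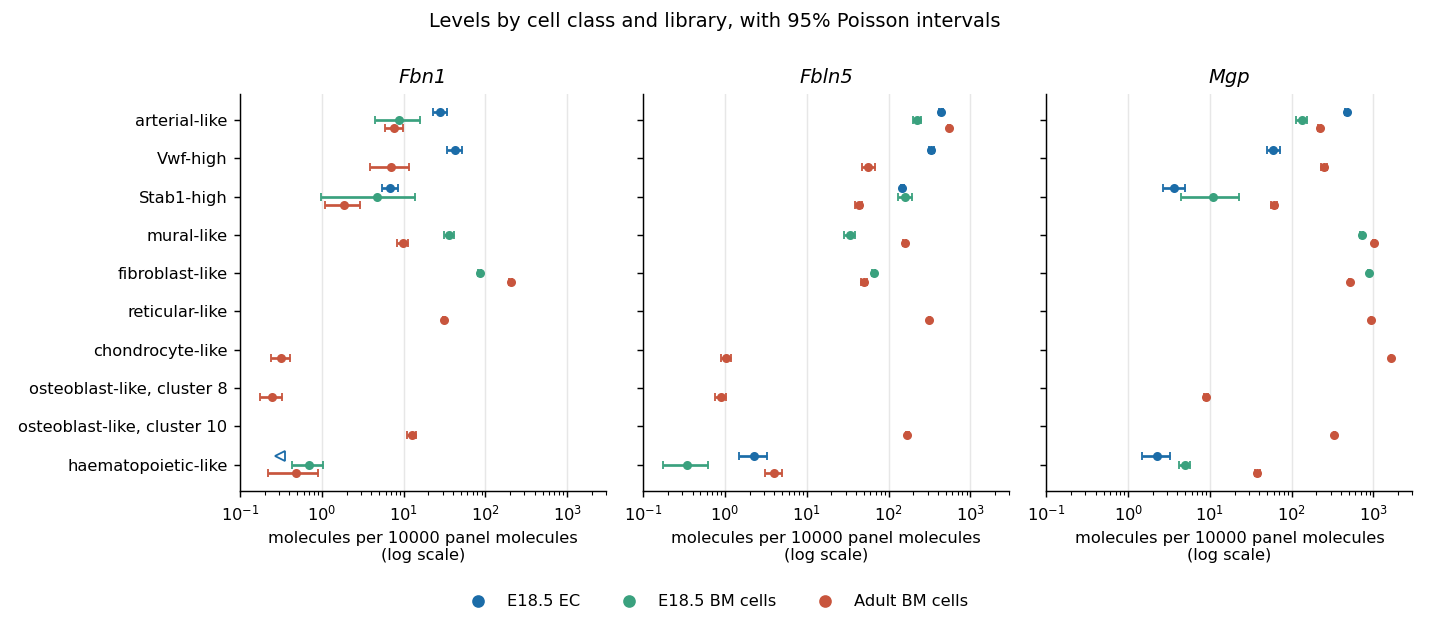
Level of Fbn1, Fbln5 and Mgp (molecules per 10000 panel molecules, log axis) in each cell class of the E18.5 EC, E18.5 BM and Adult BM libraries, with 95% counting intervals as bars and an open triangle for an upper limit where no molecule was found. Fbn1 is highest in fibroblast-like cells of the marrow libraries (85.2 and 203), Fbln5 in arterial-like ECs (437, 223 and 546), and adult chondrocyte-like cells hold the highest Mgp level (1626) next to low Fbn1 and Fbln5.

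Arterial-like ECs held more of all 3 members than the other ECs in the sorted E18.5 library. The 285 arterial-like cells had a Fbn1 level of 27.8 (22.9 to 33.6), a Fbln5 level of 437 (416 to 458) and a Mgp level of 471 (450 to 493). In the 2758 non-arterial ECs the levels were 10.5, 151 and 8.99, so the ratios were 2.66 (2.10 to 3.34) for Fbn1, 2.89 (2.73 to 3.06) for Fbln5 and 52.4 (45.5 to 60.7) for Mgp. All 3 members were thus at least 2-fold higher, where 23.0% of the 74 targets with enough molecules were. By marker gates without clustering the Fbln5 ratio was 1.71 and the Mgp ratio 19.0, and with RSEC-adjusted molecules, an earlier stage of error correction, the Mgp ratio was 16.3. The Fbln5 and Mgp values rested on 24 cells with at least 5 Mgp molecules, since the other 261 arterial-like cells had a Fbln5 level of 180. Mgp had the second highest ratio of the 74 targets, Fbln5 stood 14th and Fbn1 15th. Haematopoietic-like cells of the same library had Fbln5 and Mgp levels of 2.24 each. They had a Fbn1 molecule in 0 of 688 cells, where 3 cells would be a share of 0.436%.

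For each gene, the share of these arterial-like cells with a molecule was set beside that of haematopoietic-like cells. Fbln5 had a molecule in 56.1% of cells, Fbn1 in 22.1% and Mgp in 10.9%, against 2.47%, 0% and 2.76% of haematopoietic-like cells, whose median depth was 144 molecules against 117. After thinning every cell to 50 molecules, the shares were 45.6%, 9.52% and 11.1% in arterial-like cells and 1.40%, 0% and 1.55% in haematopoietic-like cells. Each gene was thus found in a larger share of arterial-like than of haematopoietic-like cells.

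Adult arterial-like ECs (526 cells) had the same order against other ECs for Fbln5, with a larger ratio. Their Fbln5 level was 546 (531 to 561) against 45.4 in 1064 non-arterial ECs, a ratio of 12.0 (11 to 13.2), the third highest of 81 targets. Fbn1 was 7.67 against 3.57, a ratio of 2.15 (1.45 to 3.21), and Mgp was 220 against 103, a ratio of 2.14 (1.99 to 2.30). All 3 members were again at least 2-fold higher, where 14.8% of 81 targets were. For Fbn1 and Mgp this ended with RSEC-adjusted (1.37 and 1.22) and raw molecules (1.46 and 1.26), by marker gates (1.49 and 1.58) and with 20 in place of 11 principal components in the clustering (1.20 and 0.325), the last of which gave 4.11 for Fbln5. Fbln5 was found in 85.7% of the adult arterial-like cells, or 73.3% after thinning, against 4.10% and 2.02% of haematopoietic-like cells, with median depths of 149 and 90.

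The adult Fbn1 and Mgp values rested on 1 of the 2 arterial-like subclusters. Subcluster 5 (182 cells) had Fbn1, Fbln5 and Mgp levels of 16.9, 833 and 677, and subcluster 3 (344 cells) had 4.10, 435 and 43.0. The ratios of subcluster 5 to subcluster 3 were 4.12 (2.49 to 6.93) for Fbn1, 1.92 (1.81 to 2.03) for Fbln5 and 15.7 (13.9 to 17.9) for Mgp, and 2 members passed 2-fold where 20.9% of targets did. Without subcluster 5, the adult arterial-like to non-arterial ratio was 1.15 for Fbn1, 9.59 for Fbln5 and 0.418 for Mgp, so the Mgp direction was the opposite one.

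Both subclusters carried arterial markers at different levels. Subcluster 5 had more Sema3g (1438 against 739), Hey1 (216 against 98.0), Vwf (209 against 12.6) and Alpl (376 against 15.3), and less Gja4 (500 against 839), Kdr (55.0 against 257) and Cxcl12 (602 against 1110). Alpl encodes tissue-nonspecific alkaline phosphatase, which degrades the mineralization inhibitor pyrophosphate. Mural markers were also higher in subcluster 5, with a summed level of Acta2, Tagln, Rgs5 and Notch3 of 129 against 57.6, beside 6213 in adult mural-like cells. The 107 cells of subcluster 5 with none of these 4 markers had a Mgp level of 646, a Fbln5 level of 857 and a Fbn1 level of 18.0, close to 711, 807 and 15.7 in its other cells.

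In the E18.5 BM library, 141 arterial-like ECs gave a Fbln5 level of 223 (198 to 251) against 84.3 in 263 non-arterial ECs, a ratio of 2.65 (2.21 to 3.17). Fbn1 was 8.83 against 5.62, and the interval of the ratio of 1.57 ran from 0.653 to 3.66. The Mgp ratio of 35.4 came from 1 cell that held 162 of 165 molecules, and it was 0.730 (0.0721 to 4.08) without the top 1% of cells. Fbln5 and, through that cell, Mgp passed 2-fold, where 19.2% of 52 targets did. This arterial-like class had Vwf among its leading targets, and Gja4 was in only 49 of its 140 cells with under 5 Mgp molecules.

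**Figure D2:**
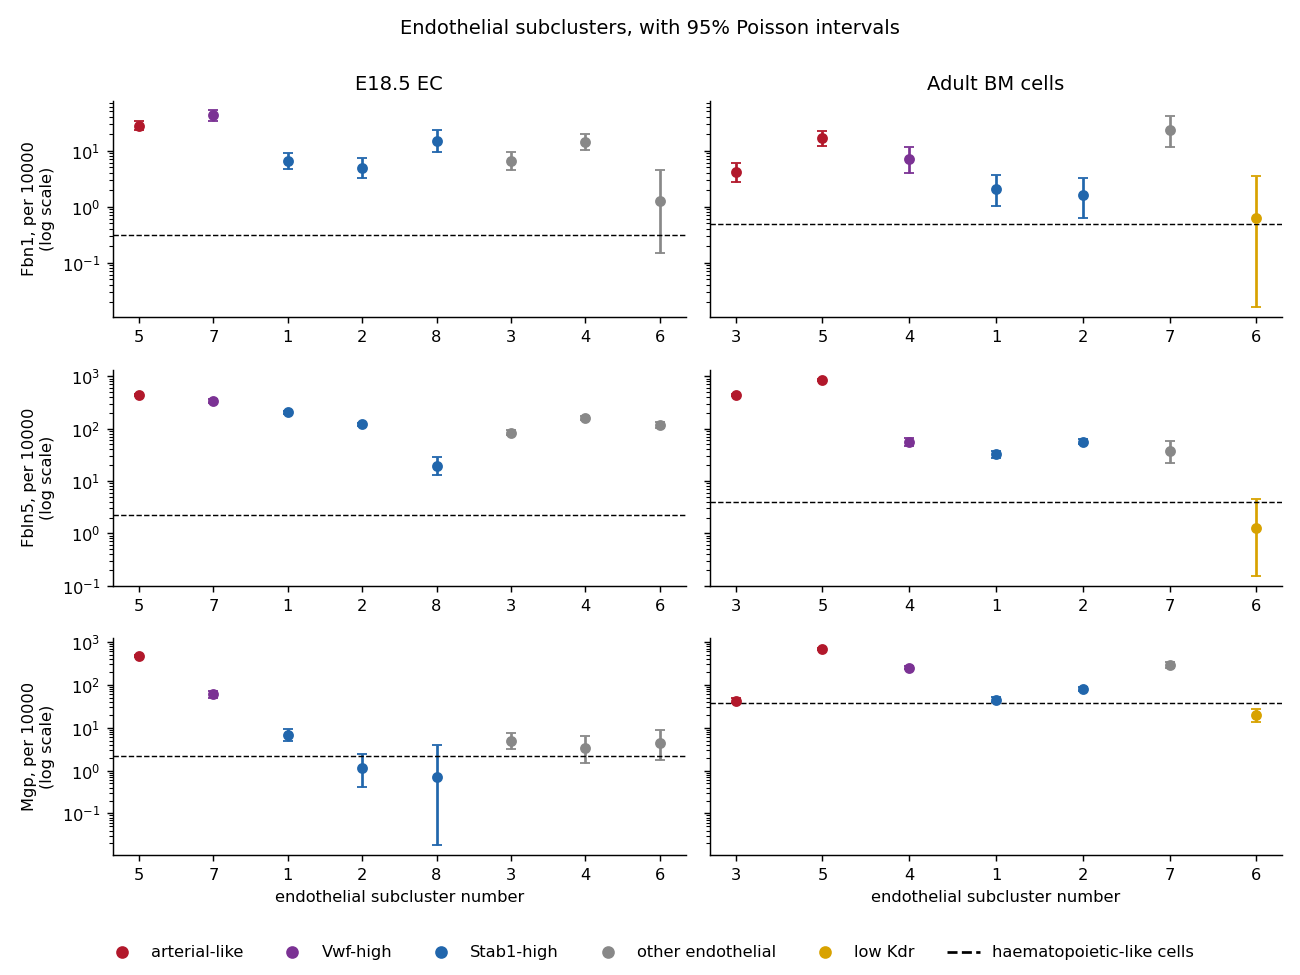
Level of each member (molecules per 10000 panel molecules, log axis) in the numbered endothelial subclusters of the E18.5 EC and Adult BM libraries, coloured by class, with 95% counting intervals and the level of haematopoietic-like cells as a dashed line (its upper limit for Fbn1 in the E18.5 EC library). Fbln5 is highest in the arterial-like subclusters of both libraries, while adult subcluster 5 lies far above adult subcluster 3 in Mgp (677 against 43.0).

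Mgp was concentrated in a small number of arterial-like cells, and the counts that follow describe cells picked by Mgp itself. In the sorted E18.5 library, 24 of 285 arterial-like ECs had at least 5 Mgp molecules and held 99.4% of the class's 1862 Mgp molecules, with up to 257 in 1 cell. All 24 had Fbln5, Sema3g and Pecam1, 23 had Gja4 and 23 had Vwf, and none had Postn, Aspn or Col2a1. Acta2 was found in 4 of them and Tagln in 6. Over the whole class, the 252 cells with none of the 4 mural markers had a Mgp level of 346 and the other 33 had 1009.

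These 24 cells also stood apart in Fbln5. Their Fbln5 level was 1719, against 180 in the other 261 arterial-like cells, where 136 had a molecule, and they held 65.7% of the class's Fbln5 and 29.1% of its Fbn1. The Fbn1 level was 48.5 against 23.7. Vwf was 503 against 280, and Kdr, the main VEGF receptor of ECs, was 27.3 against 178. Their molecules other than Mgp had a median of 159 per cell, against 109. Among all arterial-like cells thinned to 50 molecules, Mgp was found in 23.5% of cells with Fbln5 and in 0.730% of cells without it.

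Adult subcluster 5 had more such cells. Of its 182 cells, 58 had at least 5 Mgp molecules and held 94.4% of its Mgp, all 58 with Fbln5, 54 with Gja4, 40 with Vwf and 13 with Kdr. After thinning, Mgp was found in 51.3% of the cells with Fbln5 and in 22.2% of those without. In subcluster 3, only 9 of 344 cells reached 5 Mgp molecules. Mgp was in 42.2% of all adult arterial-like cells and in 22.4% of haematopoietic-like cells (25.3% and 13.9% after thinning), so a low Mgp count in an adult EC is not read as expression.

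**Figure D3:**
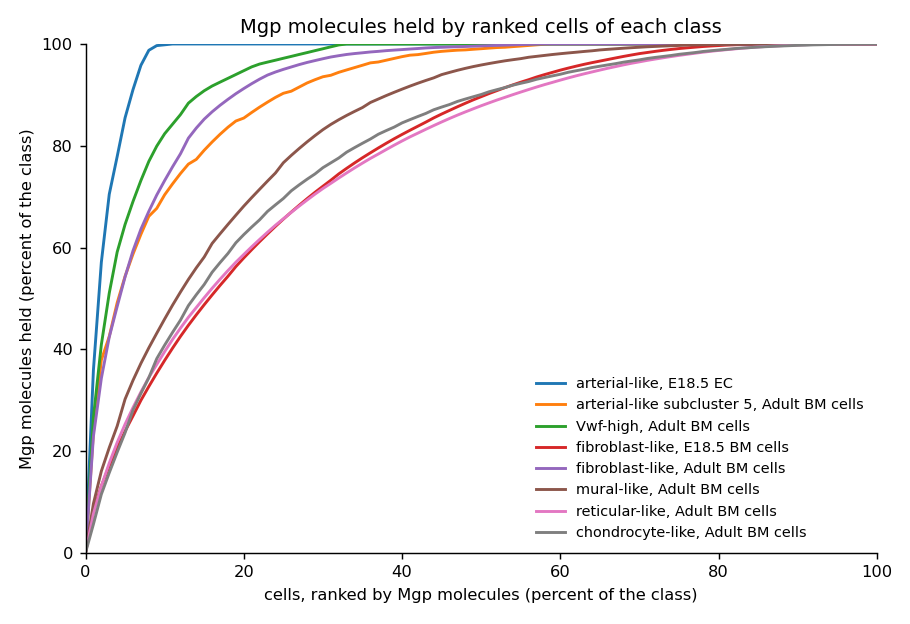
Cumulative share of a class's Mgp molecules (%) against the share of its cells (%), with cells ordered from the most to the fewest Mgp molecules. The top 10% of cells held 99.8% of Mgp in E18.5 EC arterial-like cells and 70.4% in adult subcluster 5, but 39.5% in reticular-like and 40.8% in chondrocyte-like cells.

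Vwf-high ECs were a further place of Fbn1 in the sorted E18.5 library. Vwf encodes von Willebrand factor, the adhesive glycoprotein that ECs store and release at injury. The 216 Vwf-high cells had the highest endothelial Fbn1 level, 42.4 (34.1 to 52.1), and the interval of arterial-like cells ended just below theirs, at 33.6. Per cell, arterial-like and Vwf-high cells were close, with 0.386 and 0.417 Fbn1 molecules, a ratio of 0.926. Arterial-like to Vwf-high ratios were 0.657 (0.492 to 0.877) for Fbn1, 1.31 for Fbln5 and 7.88 (6.58 to 9.50) for Mgp, and 1 member was 2-fold higher where 21.3% of targets were. The Fbn1 share of cells was 21.3% in Vwf-high cells (median depth 89), and 14.7% after thinning against 9.52% in arterial-like cells.

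Stab1-high ECs, which carry the scavenger receptor stabilin-1 of sinusoids, had low levels of Fbn1 and Mgp at E18.5. In 1585 such cells Fbn1 was 6.81, Fbln5 148 and Mgp 3.69, and Fbln5 was found in 48.5% of cells, or 39.8% after thinning. Arterial-like cells exceeded them 4.09-fold in Fbn1, 2.96-fold in Fbln5 and 128-fold in Mgp, and all 3 members were past 2-fold where 25.0% of targets were. Vwf-high cells exceeded Stab1-high cells 6.23-fold, 2.27-fold and 16.2-fold, again all 3 where 22.6% of targets were. Mgp in Stab1-high cells was near the 2.24 of haematopoietic-like cells, but that level was not even. Of its 27 molecules, 26 lay in haematopoietic-like cluster 6 (level 4.77), with Atp6v0d2, Ctsk and Col10a1 among its leading targets. Haematopoietic-like cluster 5 had 0, with an upper limit of 0.59.

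One E18.5 subcluster went against the shared order of Fbn1 and Fbln5. Subcluster 8, with 122 Stab1-high cells led by Wnt2, had a Fbln5 level of 19.4 and a Fbn1 level of 15.1. The largest Stab1-high subcluster, subcluster 1 with 871 cells, had 204 and 6.54. Fbln5 was thus 10.5-fold lower in subcluster 8, while Fbn1 was 2.31-fold higher (1.29 to 4.03), where 36.4% of targets were at least 2-fold lower and 16.4% at least 2-fold higher. Fbn1 made up 43.8% (29.5 to 58.8) of the pair's molecules in subcluster 8 and 3.11% in subcluster 1. The median depth was 100.5 molecules in subcluster 8 and 56.0 in subcluster 1, and Fbln5 was found in 9.84% of the cells of subcluster 8, or 4.67% after thinning.

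Adult Vwf-high and Stab1-high ECs had less Fbn1 and Fbln5 than their E18.5 counterparts. The 204 adult Vwf-high cells had levels of 7.0, 56.5 and 249, and the 833 Stab1-high cells had 1.86, 43.3 and 61.1, for Fbn1, Fbln5 and Mgp. Arterial-like cells exceeded Vwf-high cells 9.67-fold (8.07 to 11.7) in Fbln5, were near them in Fbn1 (1.10) and were below them in Mgp (0.884, 0.803 to 0.974), so 1 member passed 2-fold where 20.5% of targets did. Against Stab1-high cells the arterial-like ratios were 4.13, 12.6 and 3.60, all past 2-fold where 22.8% of targets were. Vwf-high cells exceeded Stab1-high cells 3.77-fold in Fbn1, 1.30-fold in Fbln5 and 4.07-fold in Mgp, with 25.6% of targets at least 2-fold higher.

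In the adult Vwf-high cells Mgp again sat in few cells, 24 of 204 with at least 5 molecules holding 86.1% of it. Tagln was found in 12 of these 24 cells. Mural markers had a summed level of 565 in the Vwf-high cells and were found in 48.5% of them, and their part in the Mgp level was not tested. Cells with a mural marker had a Mgp level of 263 and the 105 cells without one had 231. The split by cartilage markers was larger, with 410 in the 72 cells with one and 163 in the 132 without. Adult arterial-like cells without a cartilage marker had 237, above those Vwf-high cells. Without a mural marker, arterial-like cells had 176, below the Vwf-high cells. The part of cartilage markers in these levels was not tested. Adult haematopoietic-like cells had a Mgp level of 37.9, so the 45.1 of Stab1-high subcluster 1 is close to the level of free RNA.

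Fibroblast-like cells had the highest Fbn1 level in both marrow libraries. They held most of its molecules at E18.5, while in adult marrow they held 2282 and reticular-like cells 3241. In E18.5 BM, 1208 such cells had a Fbn1 level of 85.2, a Fbln5 level of 65.6 and a Mgp level of 876, and they held 88.4%, 70.6% and 59.1% of the library's molecules of these genes. Fbn1 was found in 60.4% of them (28.8% thinned) and in 0.665% of haematopoietic-like cells (0.222% thinned), with median depths of 233 and 87. Against ECs of the same library, Fbn1 was 12.8-fold and Mgp 19.6-fold higher, while the Fbln5 ratio was 0.510 per 10000 molecules and 1.35 per cell. The Mgp ratio depended on 1 EC that held 162 of the 175 endothelial Mgp molecules. Without the top 1% of cells it was 389 (198 to 902). Of the members, 2 passed 2-fold where 50.5% of targets did. The smaller fibroblast-like cluster 13, led by Cilp, had 66.8, 52.2 and 656, below the 87.4, 67.1 and 901 of cluster 6.

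Adult fibroblast-like cells (304) had the highest Fbn1 level of the series, 203, found in 83.6% of cells and in 54.0% after thinning, against 0.461% and 0.122% of haematopoietic-like cells. Their Fbln5 level was 49.7 and their Mgp level 510. The Mgp level was uneven, with a median of single cells of 34.5 and a lower quartile of 0. That median was near the 37.9 of haematopoietic-like cells, while E18.5 fibroblast-like cells had a median of 605. Against adult ECs, Fbn1 was 38.2-fold and Mgp 3.34-fold higher, and the Fbln5 ratio was 0.192. Fbn1 and Mgp were thus at least 2-fold higher, where 36.8% of targets were, and Fbln5 was at least 2-fold lower, where 45.3% were. Mural markers summed to 416 in the fibroblast-like cells, and the 209 cells without one had a Fbn1 level of 244 and a Mgp level of 369, against 151 and 689 in the other 95.

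Reticular-like cells, the stromal cells that surround marrow sinusoids and supply CXCL12 to blood stem cells, had less Fbn1 and more Fbln5 than fibroblast-like cells. In 2482 adult cells the Fbn1 level was 31.2, the Fbln5 level 317 and the Mgp level 939. Fibroblast-like cells exceeded them 6.50-fold (6.15 to 6.85) in Fbn1, were 6.37-fold lower in Fbln5 and had 0.543 (0.529 to 0.558) of their Mgp, or 1.10 when cells were gated by markers without clustering. The Fbn1 ratio was 3.85 by these gates, and with the members and the 5 most abundant targets left out of the denominator Fbn1 was 1.95 and Fbln5 0.0472, so that Fbn1 no longer passed 2-fold. Among all targets 56.4% were at least 2-fold higher and 17.8% at least 2-fold lower. Fbn1 made up 80.3% (78.8 to 81.8) of the pair's molecules in fibroblast-like and 8.98% in reticular-like cells, beside 56.5% in E18.5 fibroblast-like cells.

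Nearly all reticular-like cells carried Fbln5 and Mgp. Fbln5 was in 98.6% and Mgp in 95.5% of cells (76.4% and 82.0% thinned), both together in 61.9% after thinning, at a median depth of 374 molecules. Reticular-like cells held 67.7% of the adult library's Fbln5, 50.7% of its Fbn1 and 20.7% of its Mgp. The 2 reticular-like clusters differed little, with cluster 4 to cluster 2 ratios of 1.12, 0.938 and 0.799, where 4.4% of targets differed 2-fold. Against arterial-like ECs, reticular-like cells had 4.08-fold more Fbn1 and 4.27-fold more Mgp per 10000 molecules, with 29.2% of targets at least 2-fold higher. The same ratio for Fbln5 was 0.580 per 10000 molecules and 1.40 per cell.

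**Figure D4:**
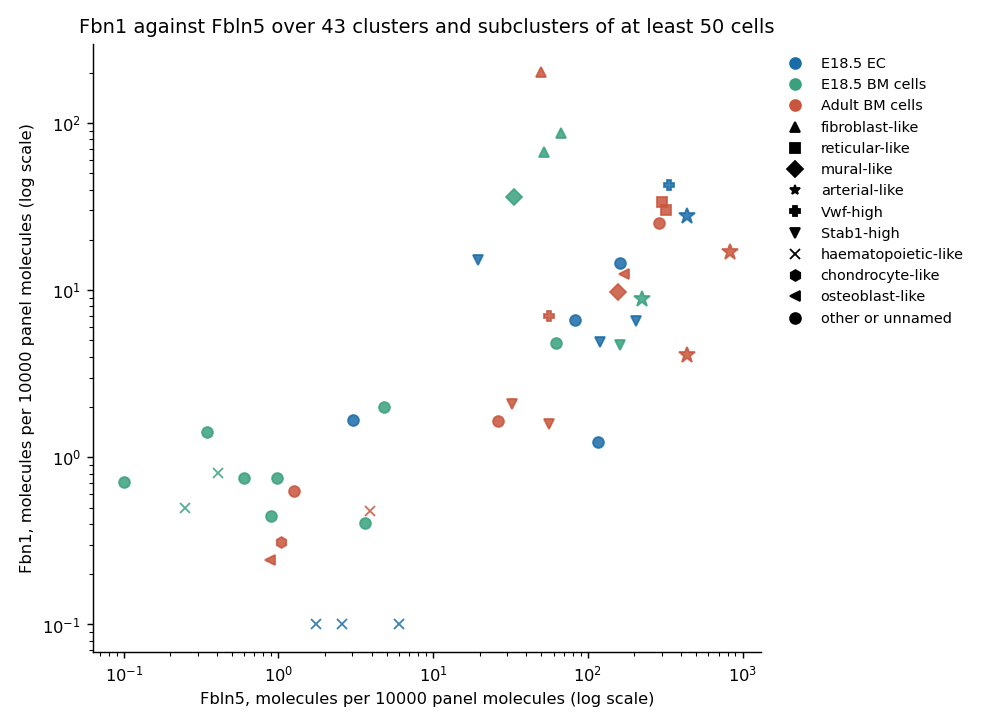
Fbn1 level (vertical) against Fbln5 level (horizontal, molecules per 10000 panel molecules, both axes log, values of 0 drawn at 0.1) in 43 clusters and endothelial subclusters of at least 50 cells, with class as symbol and library as colour. Arterial-like and reticular-like clusters lie far right in Fbln5, and the adult fibroblast-like cluster lies at the top with 203 for Fbn1 and 49.7 for Fbln5.

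Mural-like cells, the smooth muscle cells and pericytes around vessels, carried much Mgp in both marrow libraries. In E18.5 BM, 132 cells had Fbn1, Fbln5 and Mgp levels of 36.1, 33.5 and 716, and in adult marrow 310 cells had 9.70, 158 and 1016. Mgp was in 62.1% and 85.5% of these cells, or 48.8% and 70.2% after thinning, against 3.47% and 22.4% of haematopoietic-like cells (2.22% and 13.9% thinned) at median depths of 329, 462, 87 and 90. The fibroblast markers Postn or Aspn were found in 129 of the E18.5 and 284 of the adult mural-like cells, at summed levels of 740 and 179. The 26 adult cells without them had a Mgp level of 765, against 1022 in the others, and the 3 such E18.5 cells held 1 Mgp molecule. Reticular markers were found in 281 of the adult mural-like cells, with a Fbln5 level of 168 and a Mgp level of 1054. The 29 adult cells without a reticular marker had a Fbln5 level of 7.5, from 8 molecules, and a Mgp level of 464. At E18.5 the Fbln5 level was 33.7 in cells with and 33.2 in cells without a reticular marker.

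Against arterial-like ECs of the same library, mural-like cells had more Mgp and less Fbln5 per 10000 molecules. The adult ratios were 1.27 (0.949 to 1.70) for Fbn1, 0.289 for Fbln5 and 4.62 for Mgp, where 14.3% of targets were at least 2-fold higher and 66.2% at least 2-fold lower. The E18.5 BM ratios were 4.08, 0.150 and 5.41, the last of them against arterial-like cells whose Mgp came from 1 cell, and 32.4% of targets were at least 2-fold higher and 52.9% lower. Per cell the ratios for Fbn1, Fbln5 and Mgp were 3.85, 0.880 and 14.1 in adult and 18.1, 0.665 and 23.9 in E18.5 BM cells. Against adult reticular-like cells, mural-like cells had 0.311 of the Fbn1, 0.498 of the Fbln5 and 1.08 of the Mgp level, with 31.9% of targets at least 2-fold lower.

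Against fibroblast-like cells the 2 stages differed in direction for a pair of members. The mural-like to fibroblast-like ratios at E18.5 were 0.423 for Fbn1, 0.512 for Fbln5 and 0.818 for Mgp, where 53.6% of targets were at least 2-fold lower. In adult marrow they were 0.0478, 3.17 and 1.99, where 47.8% were at least 2-fold lower and 24.4% at least 2-fold higher. Fbn1 was thus below the fibroblast-like level at both stages. Among adult cells without a reticular marker, Fbln5 was 7.5 in 29 mural-like and 50.4 in 162 fibroblast-like cells. The adult Fbln5 order was thus the other way in those cells, and the part of these markers was not tested. The difference between the stages was not tested.

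Cartilage cells carried much Mgp beside a very small share of Fbn1 and Fbln5 molecules. The 429 adult chondrocyte-like cells had a Mgp level of 1626 and 703 Mgp molecules per cell, and held 64.2% of the library's Mgp. Mgp was in 99.8% of them, or 84.4% after thinning, at a median depth of 4013 molecules. Their Fbn1 level was 0.313 and their Fbln5 level 1.04, below the 0.479 and 3.93 of haematopoietic-like cells. Per cell the order was the other way, with 0.135 Fbn1 and 0.450 Fbln5 molecules in chondrocyte-like and 0.00519 and 0.0427 in the much shallower haematopoietic-like cells. Against fibroblast-like cells the ratios were 0.00154, 0.0209 and 3.19 (3.11 to 3.28), where 67.3% of targets were at least 2-fold lower and 23.5% at least 2-fold higher, and per cell they were 0.0180, 0.245 and 37.3. Against reticular-like cells they were 0.010, 0.00329 and 1.73, where 54.9% were at least 2-fold lower, and per cell 0.104, 0.0340 and 17.9.

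Unnamed clusters with cartilage or joint genes held Mgp too. In E18.5 BM, the 157 cells of cluster 11, led by Col10a1, Mmp13, Col2a1 and Spp1, had levels of 1.99, 4.83 and 852 and held 30.8% of the library's Mgp. In adult marrow, the 328 cells of cluster 7, led by Prg4 and Cilp but also by the osteoclast enzymes Acp5 and Ctsk, had 1.66, 26.2 and 488. Cluster 7 had 5.31-fold the Fbn1, 25.1-fold the Fbln5 and 0.30 of the Mgp level of chondrocyte-like cells, where 42.9% of targets were at least 2-fold higher and 30.6% lower.

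The 2 adult osteoblast-like clusters differed in all 3 members. Cluster 8, 310 cells rich in the osteocalcin gene Bglap, had levels of 0.242, 0.881 and 9.0 at a median depth of 5606 molecules, so its Mgp was below the 37.9 of haematopoietic-like cells although 74.5% of its cells had a molecule (6.77% after thinning). Cluster 10, 306 cells led by Mmp13 and Spp1 at a median depth of 509, had levels of 12.6, 170 and 334. Its Fbln5 was in 71.2% of cells, or 50.8% after thinning, while the top 1% of cells held 60.2% of its Mgp. The cluster 10 to cluster 8 ratios were 51.9, 193 and 37.1, but 88.8% of targets were at least 2-fold higher and the median ratio of all 89 targets was 11. Bglap, Bglap2 and Bglap3 were lower in cluster 10. Per cell the ratios were 6.19, 23.1 and 4.43.

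Adult and E18.5 levels were set side by side with stage, library, preparation and depth all different, and these cannot be told apart. In arterial-like ECs, the Adult BM to E18.5 EC ratios were 0.276 for Fbn1, 1.25 for Fbln5 and 0.467 for Mgp, where 24.7% of targets were at least 2-fold lower. Against the E18.5 BM arterial-like cells they were 0.869 (0.457 to 1.82), 2.45 and 1.66, where 36.1% were at least 2-fold higher. The 2 E18.5 libraries, of 1 stage, differed by 3.15, 1.96 and 3.56 in their arterial-like cells, with 25.5% of targets at least 2-fold higher in the sorted one. The Fbn1 level of the adult cells, 3.63-fold lower than in the sorted E18.5 cells, thus stood beside a 3.15-fold difference (1.70 to 6.50, from 11 molecules in E18.5 BM) between libraries of 1 stage. The Mgp ratios of 1.66 and 3.56 rested on the E18.5 BM cell with 162 molecules, and without the top 1% of cells they were 81.2 and 189. The E18.5 arterial-like classes also differed in make-up. Among their cells with under 5 Mgp molecules, Gja4 was in 49 of 140 in E18.5 BM and 252 of 261 in E18.5 EC. Vwf-high cells formed no subcluster of their own in E18.5 BM. The part of make-up in these ratios was not tested.

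Other classes gave larger stage ratios. In Vwf-high ECs, the Adult to E18.5 EC ratios were 0.165 for Fbn1, 0.169 for Fbln5 and 4.16 for Mgp, and in Stab1-high ECs 0.273, 0.293 and 16.6. Of all targets, 35.0% and 32.5% were at least 2-fold lower and 25.0% and 40.0% at least 2-fold higher in these 2 classes. The Mgp level of haematopoietic-like cells was also higher in the adult library, 37.9 against 2.24, and its part in the endothelial Mgp ratios was not tested.

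In fibroblast-like cells, adult Fbn1 was 2.38-fold (2.25 to 2.52) the E18.5 level, adult Mgp was 0.582 of it and adult Fbln5 0.758 (0.689 to 0.833), with 24.3% of targets at least 2-fold higher. The Fbn1 ratio was 1.37 with RSEC-adjusted molecules, 1.42 by marker gates and 1.14 with the members and the 5 most abundant targets left out of the denominator, so the 2-fold call ended while the direction stayed. Per cell, Fbln5 was 1.84 against 1.68 molecules, a ratio of 1.10, so its direction depended on the scale. The Mgp ratio was 1.24 when cells were gated by markers without clustering. In mural-like cells the ratios were 0.269 for Fbn1, 4.70 for Fbln5 and 1.42 for Mgp, where 39.2% were at least 2-fold lower and 34.2% at least 2-fold higher. Among mural-like cells without a reticular marker, Fbln5 was 7.5 in 29 adult and 33.2 in 41 E18.5 cells, the opposite direction. The part of these markers in the Fbln5 ratio was not tested. Fbn1 thus had a higher adult level in fibroblast-like and a lower one in mural-like cells.

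**Figure D5:**
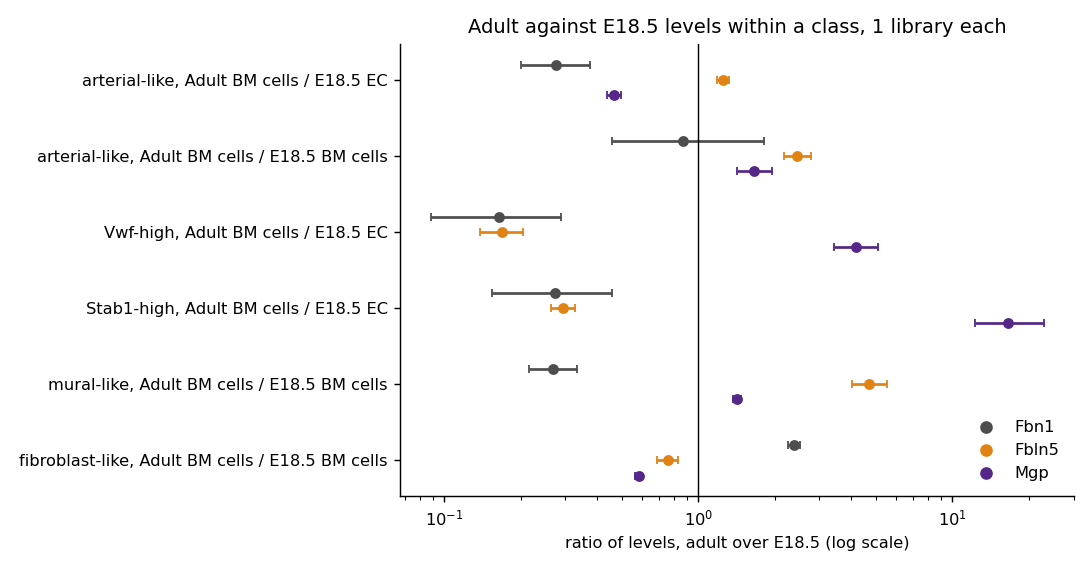
Ratio of the adult to the E18.5 level (log axis, line at 1) of each member by cell class, with 95% counting intervals. Fbn1 is below 1 in Vwf-high and Stab1-high ECs and mural-like cells and above 1 in fibroblast-like cells (2.38), whereas Fbln5 is above 1 in mural-like cells (4.70).

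The other matrix and mineral genes on the panel, 16 of 22 looked up, did not share the arterial pattern as a list. In the sorted E18.5 library 12 had enough molecules for the arterial-like to non-arterial ratio. Of these, 1 was at least 2-fold higher (Alpl) and 1 lower (Ccn3), beside 23.0% and 25.7% of all targets. Their median ratio was 1.13 beside 0.872 over all targets. In the adult library 1 of 15 was higher (Alpl) and 5 were lower, beside 14.8% and 32.1% of all targets. The share of lower genes was thus near that of all targets, with a median ratio of 0.598 beside 0.608. Between fibroblast-like and reticular-like cells, 9 of 16 were higher, among them Postn, Aspn, Ccn3 and Vcan, beside 56.4% over all targets, and Spp1, Alpl and Mmp13 were lower. Between chondrocyte-like and fibroblast-like cells, 7 were higher, including Col2a1, Acan and Col10a1, and 7 lower, beside 23.5% and 67.3% over all targets.

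Fbn1 and Mgp, both with a higher class level in fibroblast-like cells than in ECs, were compared cell by cell there. In adult fibroblast-like cells the median was only 1 Mgp molecule. After thinning, Mgp was found in 29.0% of adult fibroblast-like cells with Fbn1 and in 48.6% of those without, and in E18.5 BM in 69.6% and 79.4%. A molecule of 1 gene takes a place among the 50 of a thinned cell, and its part in these shares was not tested.

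Over 43 clusters of all libraries, the targets with the pattern most like that of Fbn1 were Fbln5 and Lepr (Spearman's rho of 0.72 each) and Kitl (0.71). For Fbln5 they were Kitl (0.82), Lepr (0.80) and Igfbp7 (0.76), and for Mgp Pth1r (0.80), Sox9 (0.79) and Cytl1 (0.77). The points share libraries, depth and cluster definitions, so these values are descriptions. Within single libraries other targets came first: Gja4 (0.92), Ccn3 (0.87) and Notch3 (0.87) for Fbn1 in the E18.5 EC, E18.5 BM and Adult BM libraries, over 12, 15 and 16 clusters.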

How the data were processed

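Targeted single-cell libraries were made from 3 pools of mouse bone marrow cells, 1 per group, with a BD Rhapsody panel. The authors deposited, for each cell and amplicon, counts of reads and of raw, RSEC-adjusted and DBEC-adjusted molecules. The file headers name version 1.8 of the BD Rhapsody Targeted Analysis Pipeline, the methods name an earlier one, and the labels give build mm10. DBEC removes molecules with few reads and kept 21.2% to 41.7% of raw molecules per library (432987 to 6304495 in all), 14.1% to 28.4% of those of Fbn1 PolyA_1, 15.8% to 32.3% of Fbln5 and 31.3% to 48.1% of Mgp.

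Here DBEC molecules were summed per gene and library in Python 3.11.15 (numpy 2.4.6, pandas 2.3.3, scipy 1.17.1, scikit-learn 1.9.0, igraph 0.11.9, matplotlib 3.10.9). Cells passed with 20 or more molecules over 5 or more targets and were clustered on log-scaled shares (11 principal components, 20 neighbours, Leiden resolution 0.5) without the members and 6 cell cycle targets, which gave 36 clusters and 19 endothelial subclusters. Non-arterial ECs are all ECs but arterial-like ones and a subcluster low in Kdr. Levels carry exact 95% Poisson intervals, shares Clopper-Pearson intervals and ratios conditional binomial intervals. Ratios use targets with at least 20 molecules in both sets together. The scripts were tested on simulated data. Cells are not replicates, so no test was run. The members, gene lists and comparisons were chosen with earlier results of these data known. Genes named are the members, class markers, listed matrix genes, the 3 targets most like each member, and, named after their values were seen, the leading targets of clusters and of single-library likeness. No protein or amplicon sequences were used.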

Additional observations from a re-analysis of the deposited data

Results flagged for a closer look

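Of 21 pairs of a member and a contrast that could be set side by side in 2 libraries, 3 had opposite directions with intervals on different sides of 1. The share over all targets is not given here, so 3 of 21 is not read as more or less than other targets show. The Mgp ratio of arterial-like to Vwf-high ECs was 7.88 in the E18.5 EC library and 0.884 in the Adult BM library. In the E18.5 EC library, 24 of 285 arterial-like cells held 99.4% of the class's Mgp. Per cell the adult ratio was 1.46, so the opposite direction held only per 10000 molecules. Among adult cells without a cartilage marker, the Mgp level was 237 in arterial-like and 163 in Vwf-high cells. The opposite direction was thus not seen in those cells, and the part of these markers was not tested.

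The Fbln5 ratio of mural-like to fibroblast-like cells was 0.512 in the E18.5 BM and 3.17 in the Adult BM library, and per cell the ratios were 0.781 and 4.54. In adult cells without a reticular marker, the Fbln5 level was 7.5 in mural-like and 50.4 in fibroblast-like cells. The opposite direction was thus not seen in those cells. The Mgp ratio of the same classes was 0.818 and 1.99, and per cell both were above 1 (1.25 and 2.85). The difference between the libraries was not tested in any of the 3 cases, since each group had 1 library.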

How the results depend on the processing

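In all, 13 ratios were recomputed under 11 settings, of which 3 (Fbn1 PolyA_1 alone, without adult arterial-like subcluster 5, and molecules per cell) were chosen after seeing the data. Of 124 values, 119 stayed on the same side of 1, and 5 did not. The cause was not tested. In the lists that follow, ratios are arterial-like over non-arterial in E18.5 EC (EC), the same in Adult BM (AD), fibroblast-like over reticular-like (FR), chondrocyte-like over fibroblast-like (CF) and adult over E18.5 fibroblast-like (ST), and those not listed moved by less than the counting interval. Requiring 50 molecules per cell and using Fbn1 PolyA_1 alone moved none by more than that.

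Values on the other side of 1 were Mgp AD with 20 principal components (0.325) and without subcluster 5 (0.418), Mgp FR (1.10) and Mgp ST (1.24) by marker gates without clustering, and Fbln5 ST per cell (1.10). With RSEC-adjusted molecules, Fbn1 was 1.37 (AD), 5.23 (FR) and 1.37 (ST), Fbln5 2.54 (EC), 7.43 (AD), 0.198 (FR) and 0.930 (ST), and Mgp 16.3 (EC), 1.22 (AD), 0.567 (FR), 2.85 (CF) and 0.645 (ST). With raw molecules, Fbn1 was 5.10 (FR) and 1.72 (ST), Fbln5 8.88 (AD), and Mgp 24.4 (EC), 1.26 (AD), 0.517 (FR) and 3.49 (CF). With the members and the 5 most abundant targets left out of the denominator, Fbn1 was 1.95 (FR) and 1.14 (ST), Fbln5 2.36 (EC), 13.8 (AD), 0.0472 (FR) and 0.362 (ST), and Mgp 42.8 (EC), 2.45 (AD), 0.163 (FR), 12.1 (CF) and 0.278 (ST).

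With 20 principal components, Fbn1 was 1.20 (AD), Fbln5 4.11 (AD), and Mgp 0.593 (FR), 3.06 (CF) and 0.632 (ST). By marker gates, Fbn1 was 3.85 (FR) and 1.42 (ST), Fbln5 1.71 (EC), 7.40 (AD) and 0.897 (ST), and Mgp 19.0 (EC), 1.58 (AD) and 1.42 (CF). Without cells that carried markers of another class, Fbn1 was 3.32 (AD) and 2.02 (ST), Fbln5 0.176 (FR) and Mgp 3.26 (AD). Without the 1% of cells highest in the member, Fbn1 was 3.41 (EC) and 4.93 (AD), Fbln5 2.67 (EC) and 13.7 (AD), and Mgp 133 (EC), 0.426 (FR), 4.07 (CF) and 0.465 (ST). Without subcluster 5, AD was 1.15 for Fbn1 and 9.59 for Fbln5. Per cell, Fbn1 was 4.31 (EC), 3.22 (AD), 5.75 (FR) and 3.44 (ST), Fbln5 4.69 (EC), 18.0 (AD) and 0.139 (FR), and Mgp 85.0 (EC), 3.20 (AD), 0.481 (FR), 37.3 (CF) and 0.841 (ST).

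No paired analysis was possible because each group had 1 library. At a median of 83 to 242 molecules per cell, a cell without a molecule of a member is not called negative. Intervals count molecules only, so a difference between animals, which the pools do not keep apart, is not covered.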
